A study of Rattus norvegicus with 11 samples.

Results

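The genes of dopamine receptors and dopamine signalling were followed in the medial prefrontal cortex (mPFC) of rats that had self-administered heroin. The members were the 5 dopamine receptor genes Drd1a, Drd2, Drd3, Drd4 and Drd5, the signalling gene Ppp1r1b, and the presynaptic genes Th and Slc6a3. They were chosen as the non-control probes of the array that carry these names, which gave 8 of its 35581 different names, 1 probe per gene and 35 spots in all. RNA was measured on single-colour Agilent arrays, 1 array per rat, in 6 rats that self-administered heroin and 5 that were yoked to receive saline. All were male rats aged 4 months, and all had 14 days of abstinence before an extinction session and tissue collection. In the yoked design the timing of saline infusions was set by the heroin intake of another rat, so the groups differed both in the drug and in control over its delivery. Each rat is called here by its group and the replicate number of its label.

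Dopamine reaches the mPFC in axons of midbrain neurons and acts on G-protein-coupled receptors of 2 classes. The D1-like receptors (Drd1a and Drd5) couple to stimulatory G proteins and raise cyclic AMP, whereas the D2-like receptors (Drd2, Drd3 and Drd4) couple to inhibitory G proteins and lower it. Ppp1r1b encodes DARPP-32, which inhibits protein phosphatase 1 once protein kinase A has phosphorylated it. Th encodes tyrosine hydroxylase, the rate-limiting enzyme of catecholamine synthesis, and Slc6a3 encodes the dopamine transporter; both are made mainly in the cell bodies of catecholamine neurons, which lie outside the cortex.

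Signals are given in array medians, that is, divided by the median signal of all non-control probes on the same array. That median was 42.7 to 78.3 intensity units in the heroin group and 58.0 to 83.2 in the saline group, and 25587 of 41012 probes were detected on all 11 arrays. On the log2 scale the median of all tested probes was 0.18 higher in heroin rats. It was 0.01 higher with quantile normalization and different by -0.03 with scaling to the 75th percentile. The members' changes are also given relative to the shift of 0.18, which exceeded the change of all 5 members tested. After quantile normalization Drd5 (0.036) and Th (0.10) changed by more than the 0.01 of all probes. Drd1a, Drd3 and Ppp1r1b lay below it. Quantile normalization did not move all probes alike. It lowered the bright Gnb1 (0.29 to 0.02) and Ppp1r1b, the member with the highest signal (0.01 to -0.13). It raised the dimmer Drd1a, Drd3, Drd5 and Th, and Drd2 near the background (0.06 to 0.26). Whether the shift was equal at all signal levels was not tested, so values relative to 0.18 may overstate a fall of dim members. Cortical markers matched the labelled tissue: the 5 pyramidal neuron markers on the array (Slc17a7, Camk2a, Nrgn, Neurod2 and Rasgrf2) and all 8 interneuron markers were detected in every rat. Arrays with the same replicate number were scanned together, except that heroin rat 1 was scanned alone, and within a scan the heroin array always held the same position, so position and group cannot be told apart. Without saline rat 5, the probes past both thresholds described next rose from 2.72% to 9.21% of those tested. Heroin rat 6 had the lowest array median (42.7) and the fewest probes detected (28185). Its weight by limma's array weights was also the lowest (0.26, against 0.34 for saline rat 5).

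No member passed the test between heroin and saline rats. A probe was called where limma gave an unadjusted p under 0.02 and the groups differed by at least 1.4-fold, the thresholds of the study's methods. By this rule 0 of the 5 members that could be tested were called, against 2.72% of all 25555 tested probes. An unadjusted p under 0.05 was found for 0 of the 5 as well, against 18.5% of all tested probes, and by the methods' t-test 0 of the 5 had one, against 16.1% of all tested probes. The heroin and saline values overlapped for every member, while 1.78% of all tested probes had groups that did not overlap. The smallest adjusted p that limma gave over the whole array was 0.263. In bulk tissue, fewer cells of a type and less RNA per cell cannot be told apart. The labels name 1 array per rat, and the number of arrays limits the precision of every comparison.

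**Figure D1:**
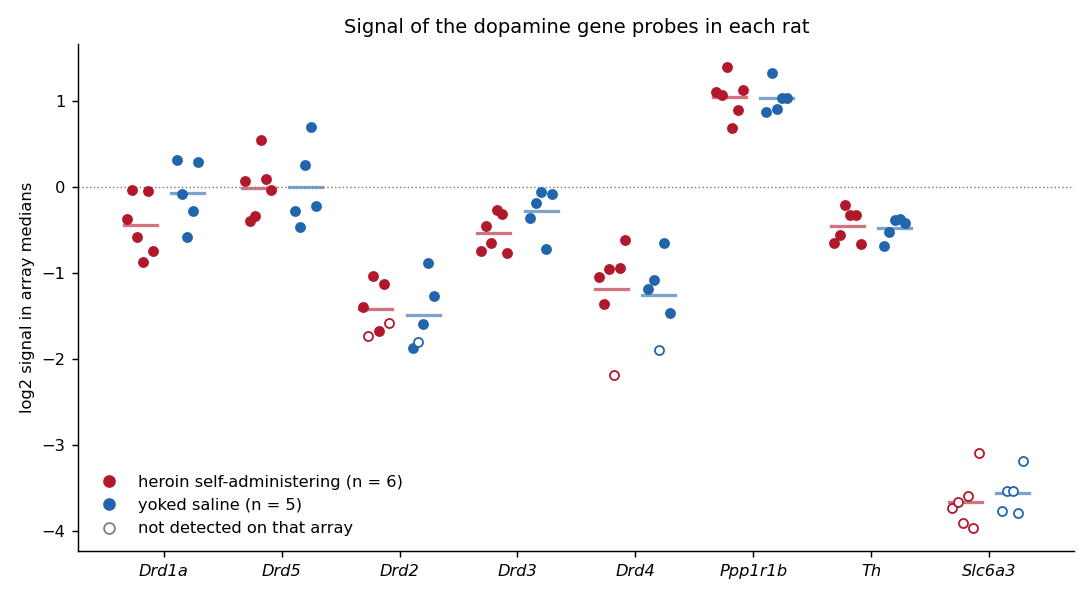
Log2 signal (in array medians) of the 8 dopamine gene probes in each rat, heroin self-administering rats in red and yoked saline rats in blue, with bars at the group means and open circles where the probe was not detected on that array. Within each gene the 2 groups overlap; Slc6a3 was detected in none of the 11 rats, and levels of different probes cannot be compared.

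The D1-like receptor Drd1a is the principal cortical dopamine receptor gene, and its probe lies at chr17:16657572-16657631 on the plus strand (build rn3 for all positions here). It was printed as 10 spots per array and was detected in all 11 rats, with 109 of 110 spots well above background and a signal 1.86 to 5.80 times the lowest signal scored as such. The signal was 1.24, 0.940, 0.668, 0.825 and 1.22 array medians in saline rats 2 to 6. In heroin rats it ranged from 0.543 to 0.977 with a median of 0.719. Heroin rat 4 was the lowest of all rats and saline rat 4 the lowest of its group, and 3 of 6 heroin rats lay below every saline rat. The heroin mean was 0.753 ± 0.186 array medians (SD, n = 6) against a saline mean of 0.978 ± 0.248 (SD, n = 5).

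This made Drd1a the member with the largest difference, a log2 difference of -0.37 (SE 0.20, 95% interval -0.80 to 0.05), or 0.772-fold. It did not pass the test (limma, unadjusted p = 0.0814, adjusted p = 0.295; exact permutation test over 462 divisions of the rats, two-sided, p = 0.119). The interval reaches from a fall of 42.6% to a rise of 3.72%, so a fall past 1.4-fold lies within it. Relative to the shift of all probes the difference was -0.56. Quantile normalization gave -0.35 and the 75th percentile -0.59 (limma, unadjusted p = 0.0375, adjusted p = 0.495). With the 75th percentile 746 of the 779 called probes of the array were lower in heroin rats. Within scans, the heroin rat had the lower Drd1a signal in 4 of 5 pairs, with log2 differences of -0.34, -0.50, -0.30, 0.23 and -1.03 for replicates 2 to 6. The pair of replicate 5 went the other way, and the pair of replicate 6 was the farthest apart.

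Drd5, the other D1-like receptor, binds dopamine with high affinity and has no intron in its coding sequence. Its probe lies at chr14:77770452-77770511 on the minus strand, was a single spot and was detected in all 11 rats. Saline rats 2 to 6 gave 0.823, 0.724, 1.19, 1.62 and 0.855 array medians, and heroin rats gave 0.757 to 1.46 with a median of 1.01. Heroin rat 4 and saline rat 5 were the highest of their groups, and every heroin rat lay within the saline range. The log2 difference was -0.0047 (SE 0.22, 95% interval -0.47 to 0.46; limma, unadjusted p = 0.983, adjusted p = 0.991), or -0.19 relative to the shift of all probes. Without saline rat 5 it was 0.17, again with no p under the threshold (limma, unadjusted p = 0.394).

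The probe of Drd2, the receptor that antipsychotic drugs block, was close to the background. Its 60 bases, at chr8:52725587-52725646 on the plus strand, are shown with those of the other D2-like receptors. Detection limits what can be said of Drd2 and Drd4, whereas Drd3 was detected in every rat. For Drd3 only the start of the probe is printed, up to the stop codon TGA that ends the first open frame, in capitals.

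Drd2: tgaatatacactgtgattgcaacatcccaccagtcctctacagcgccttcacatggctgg
Drd3: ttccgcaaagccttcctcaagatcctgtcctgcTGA
Drd4: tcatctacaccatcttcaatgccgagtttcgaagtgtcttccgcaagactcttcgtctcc

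Of the 110 Drd2 spots (10 per array), 73 were well above background, from 1 in heroin rat 6 to all 10 in heroin rats 3 and 5 and saline rats 5 and 6. The probe was thereby detected in 4 of 6 heroin and 4 of 5 saline rats and did not enter the test. Signals were 0.272, 0.287, 0.330, 0.543 and 0.413 array medians in saline rats 2 to 6, and 0.301 to 0.487 with a median of 0.356 in heroin rats. Saline rat 5 was the highest of all rats and saline rat 2 the lowest, so the heroin values lay inside the saline range. In a fit without the detection filter the log2 difference was 0.06 (SE 0.21, 95% interval -0.38 to 0.50; limma, unadjusted p = 0.774). Quantile normalization gave 0.26 and the 75th percentile -0.16.

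Drd3, a D2-like receptor best known from limbic regions, was detected in all 11 rats by a single spot at chr11:58504524-58504584 on the minus strand. Saline rats 2 to 6 had 0.775, 0.875, 0.959, 0.607 and 0.943 array medians. Heroin rats had 0.588 to 0.832 with a median of 0.682, and all 6 lay below the saline median. Saline rat 5 lay apart from the other saline rats, inside the lower part of the heroin range. The log2 difference was -0.25 (SE 0.15, 95% interval -0.57 to 0.07), or 0.841-fold, and did not pass the test (limma, unadjusted p = 0.122, adjusted p = 0.332; exact permutation test, two-sided, p = 0.126). Relative to the shift of all probes it was -0.43.

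The Drd3 value depended on saline rat 5 and on the scaling. Without saline rat 5 the log2 difference was -0.36 (limma, unadjusted p = 0.0216, adjusted p = 0.098). With scaling to the 75th percentile, under which most called probes of the array were lower, it was -0.47 (limma, unadjusted p = 0.0258, adjusted p = 0.461). After quantile normalization it was -0.20. With each array weighted by its consistency it was -0.37 (limma, unadjusted p = 0.0114, adjusted p = 0.0407), still short of 1.4-fold. Under that weighting 9.74% of all probes were called by both thresholds. The share of all probes with an adjusted p that small was not counted, so this p does not set Drd3 apart. Heroin was lower in 4 of 5 scan pairs, with log2 differences of -0.09, -0.46, -0.21, 0.40 and -0.68 for replicates 2 to 6. As for Drd1a, the pair of replicate 5 went the other way.

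Drd4, a D2-like receptor found on cortical pyramidal cells and interneurons, has its single-spot probe at chr1:201639930-201639989 on the plus strand. It was detected in 5 of 6 heroin and 4 of 5 saline rats; the rats in which it was not, heroin rat 4 and saline rat 4, shared a scan. Saline rats 2 to 6 gave 0.440, 0.471, 0.268, 0.637 and 0.361 array medians, and heroin rats 0.218 to 0.650 with a median of 0.499. Heroin rat 4 was the lowest and heroin rat 6 the highest of all rats, and the SD within groups was 0.51 on the log2 scale, the widest of the 7 members detected in any rat. Without the detection filter the log2 difference was 0.07 (SE 0.28, 95% interval -0.54 to 0.68; limma, unadjusted p = 0.809). Quantile normalization gave 0.25 and the 75th percentile -0.15.

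**Figure D2:**
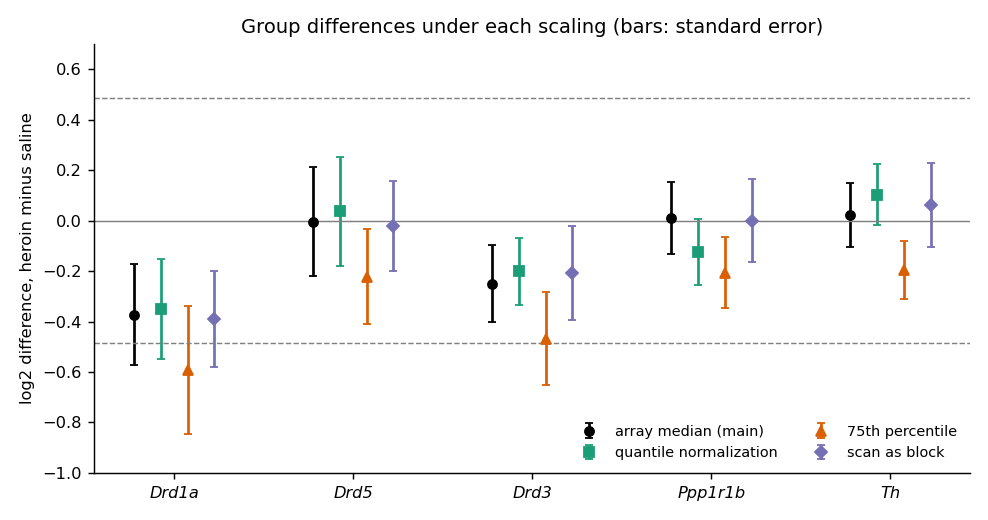
Log2 difference (heroin minus saline, with limma's standard error as bars) for the 5 members detected in all rats, under division by the array median, quantile normalization, the 75th percentile, and with the scan as a block; dashed lines mark 1.4-fold. Drd1a and Drd3 lie below 0 under all 4, from -0.59 to -0.35 and from -0.47 to -0.20, while Drd5, Ppp1r1b and Th lie on both sides of 0.

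Ppp1r1b, the DARPP-32 gene, was detected in all 11 rats with 5.36 to 11.8 times the lowest signal scored as well above background. The array's annotation places its probe at chr10:87143691-87145026 on the plus strand, a span of 1336 bases for a probe of 60, so the annotated match is interrupted in the genome. Its sequence is rich in G and C (65% of bases).

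Ppp1r1b: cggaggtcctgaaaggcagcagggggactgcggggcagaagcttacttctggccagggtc

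Saline rats 2 to 6 had 1.82, 2.49, 1.87, 2.05 and 2.05 array medians, and heroin rats had 1.61 to 2.63 with a median of 2.12. The heroin mean was 2.08 ± 0.342 (SD, n = 6) against a saline mean of 2.06 ± 0.265 (SD, n = 5). One heroin rat lay above and 1 below the whole saline range. The log2 difference was 0.01 (SE 0.14, 95% interval -0.29 to 0.31; limma, unadjusted p = 0.937, adjusted p = 0.964), so a change past 1.4-fold in either direction lies outside this interval. Relative to the shift of all probes it was -0.17. It was -0.13 after quantile normalization (95% interval -0.41 to 0.16) and -0.21 with the 75th percentile, where the interval (-0.51 to 0.10) reaches past 1.4-fold lower.

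Th RNA was detected in all 11 rats on all 110 spots, at 2.07 to 3.90 times the lowest signal scored as well above background. The probe, at chr1:203318940-203318999 on the minus strand, is shown because this transcript was measured in a tissue that holds mainly the axons of the neurons that make it.

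Th: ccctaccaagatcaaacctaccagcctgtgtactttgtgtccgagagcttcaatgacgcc

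Saline rats 2 to 6 gave 0.620, 0.692, 0.762, 0.772 and 0.744 array medians, and heroin rats 0.628 to 0.866 with a median of 0.736. Of the heroin rats, 3 of 6 lay above every saline rat and none below them all. The log2 difference was 0.02 (SE 0.13, 95% interval -0.25 to 0.30; limma, unadjusted p = 0.862, adjusted p = 0.918), an interval that also leaves out 1.4-fold in both directions. Relative to the shift of all probes it was -0.16. With scaling to the 75th percentile it was -0.20 (95% interval -0.45 to 0.06), and after quantile normalization 0.10 (95% interval -0.16 to 0.36). Heroin was higher in 4 of 5 scan pairs, with log2 differences from -0.25 to 0.32.

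Slc6a3 was not well above background in any of the 11 rats, and its probe, at chr1:30518494-30518553 on the minus strand, was at the floor of 5 intensity units in 8 of them. Its highest signal, 9.07 intensity units in saline rat 6, was 0.516 times the lowest signal scored as well above background on that array. No fold is given, since both groups were below background. Among the markers of other monoamine neurons, the noradrenaline transporter gene Slc6a2 was detected in 1 of 11 rats, the serotonin transporter gene Slc6a4 in 3, Dbh (which makes noradrenaline from dopamine) in 5, and Tph2 (which starts serotonin synthesis in neurons) in 8. Ddc and Slc18a2, which serve all monoamines, were detected in all 11, and their mean log2 level ranged from 1.08 to 2.02 in heroin rats and from 0.745 to 1.62 in saline rats. The part of noradrenergic axons in the Th signal was not tested.

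The genes printed as 10 spots allow the error of a single array to be set against the spread between rats. For Drd1a the SD of the spots on an array was 0.22 on the log2 scale (pooled over arrays), so that the mean of an array's spots had an error of 0.069, while the rats of a group varied with an SD of 0.37. For Drd2 these values were 0.36, 0.118 and 0.35, and for Th 0.19, 0.063 and 0.17. In all 3 genes the rats of a group varied more than the spot error of an array alone would give. The spots share an array and its labelling reaction, whose own error was not measured.

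**Figure D3:**
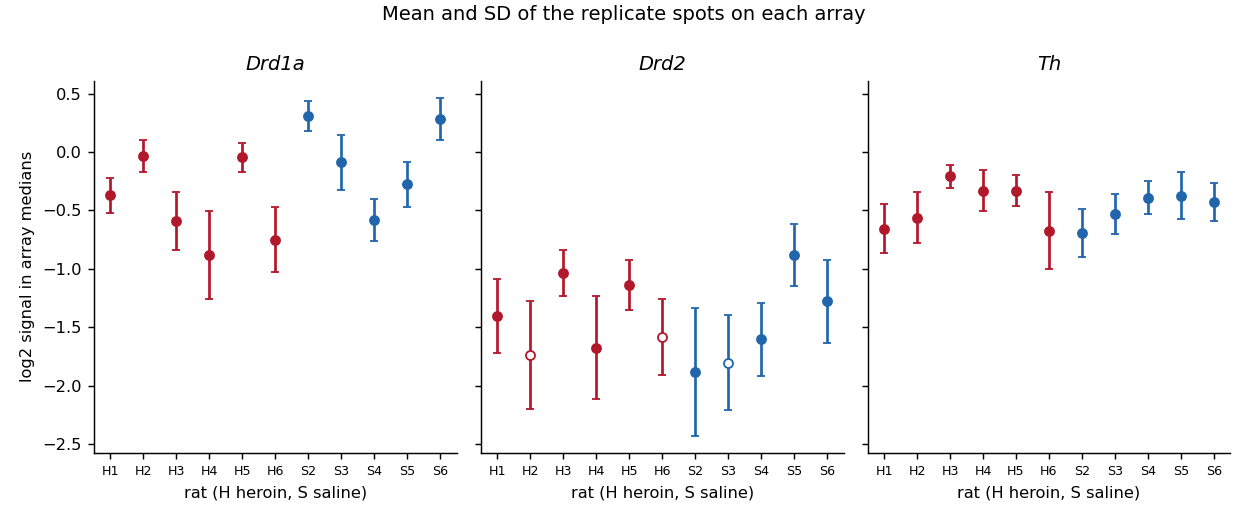
Mean log2 signal (in array medians) of the replicate spots of Drd1a, Drd2 and Th on each array, with the SD of the spots as bars, for heroin rats H1 to H6 (red) and saline rats S2 to S6 (blue); open circles mark arrays on which the probe was not detected. Drd1a runs from 0.543 array medians in heroin rat 4 to 1.24 in saline rat 2, whereas Th stays between 0.620 and 0.866.

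The levels of the 5 members detected in all rats were compared with each other across the 11 rats, and with the mean log2 level of 10 markers of striatal projection neurons that are not members. Striatal neurons express Drd1a, Drd2 and Ppp1r1b at high levels and lie close to the collected cortex. Of the 15 relations computed, 1 passed the adjusted threshold: the Drd3 probe was lower in rats with a higher striatal marker level (Pearson r = -0.87, permutation p = 9.4e-04, adjusted p = 0.0141). Spearman's rho was -0.78, which did not pass (permutation p = 0.0069, adjusted p = 0.104). Without heroin rats 6 and 1, the farthest from the median of Drd3, r was -0.86, and it was -0.84 after the group means were removed and -0.74 after quantile normalization. Within the 5 scans that held both groups, the striatal markers differed by 0.33, 0.41, 0.18, -0.53 and 0.44 (heroin minus saline, log2) for replicates 2 to 6. These differences had the opposite sign to those of Drd3 in 5 of 5. The count uses the same values as the correlation and is not separate from it. After quantile normalization the striatal levels within each scan lay closer. They were 9.14 and 9.11 in heroin and saline rats 2, the closest pair, and 9.11 and 9.49 in rats 5, the farthest apart. Interneuron and microglia markers had the same signs as the striatal markers in these 5 scans, and the other marker lists did not. Correlations of Drd3 with the other lists were not computed, and none is given over so few pairs.

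**Figure D4:**
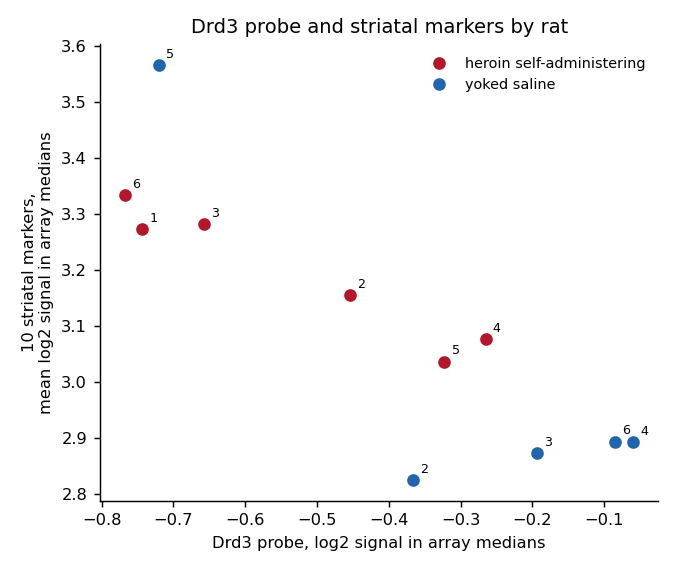
Log2 signal of the Drd3 probe in each rat (horizontal axis) against the mean log2 signal of 10 striatal projection neuron markers (vertical axis), both in array medians, with the replicate number beside each point. The 11 rats run from saline rats 4 and 6 at the lower right to saline rat 5 and heroin rat 6 at the upper left.

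The striatal marker level ranged from 3.04 to 3.33 on the log2 scale in heroin rats and from 2.82 to 3.57 in saline rats, where saline rat 5 was the highest and the other 4 lay below every heroin rat. After quantile normalization the groups overlapped more, and 1 saline rat lay below every heroin rat. This order was not particular to the striatal markers. In array medians, the interneuron marker level of saline rats 2, 3, 4 and 6 (4.83 to 5.11) also lay below every heroin rat (5.17 or more). Saline rat 5 had 5.42. Of the 16 listed striatal markers 15 were on the array and 12 were detected in every rat, Drd1a and Ppp1r1b among them. Drd1a and Ppp1r1b did not follow the other striatal markers: r was -0.45 for Drd1a (permutation p = 0.158, adjusted p = 0.508) and 0.26 for Ppp1r1b (permutation p = 0.430, adjusted p = 0.645). After quantile normalization a second relation passed, with Drd5 lower where Ppp1r1b was higher (r = -0.78, against -0.58 with an adjusted p = 0.473 by permutation in the main scaling). The receptors Drd1a and Drd3 were not closely related to each other (r = 0.32, adjusted p = 0.632 by permutation).

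As a description, the 2 named genes whose levels over the 11 rats were most like each member were found among 8344 probes. For Drd1a they were Obp1f (r = 0.95) and RGD1308613 (r = 0.94), for Drd3 Gsta2 (r = 0.89) and RT1-CE5 (r = 0.86), and for Drd5 Grk1 (r = 0.95) and Mb (r = 0.91). For Ppp1r1b they were Ppfia4 (r = 0.90) and Nefl (r = 0.87), and for Th RGD1359349 (r = 0.89) and Efna2 (r = 0.86). These are the highest of many correlations over the same arrays, which share their scaling. Mb encodes myoglobin and Grk1 the rhodopsin kinase of photoreceptors, whereas Nefl encodes a neurofilament subunit.

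The other genes of the pathway, in 4 lists of 58 genes, were carried by 55 probes chosen as the brightest of each gene, and 53 were tested. One rose past both thresholds and 0 fell, 1.89% against the 2.72% of all tested probes. The 53 genes had a median log2 difference of 0.25 against 0.18 for all tested probes, and 39 of 53 lay above the latter. An unadjusted p under 0.05 was found for 18 of 53, all higher in heroin rats (34%, against 18.5% of all probes in either direction). After quantile normalization the median was 0.05 and 2 of 53 had such a p (3.77%, against 7.71% of all probes). These were Gnai1, which was higher, and Arrb1, named here after its values were seen, which encodes a beta-arrestin and was lower (log2 difference -0.23). By either scaling no gene of the lists had an adjusted p under 0.05 with limma.

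The gene that rose was Gnai1, which encodes an inhibitory G protein subunit through which D2-like receptors act. Its signal was 1.48, 1.44, 2.04, 3.72 and 1.86 array medians in saline rats 2 to 6, and 2.66 to 3.47 with a median of 3.05 in heroin rats. Saline rat 5 was the highest of all rats, and the other 4 saline rats lay below every heroin rat. The log2 difference was 0.63 (SE 0.21; limma, unadjusted p = 0.0081, adjusted p = 0.263; exact permutation test, two-sided, p = 0.0325), and 0.51 after quantile normalization (limma, unadjusted p = 0.016). Without saline rat 5 it was 0.86 (limma, adjusted p = 0.0605). By the methods' t-test it did not pass (unadjusted p = 0.0631), and it fell short of 1.4-fold with the 75th percentile (0.41) and with the normexp background (0.44).

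In the list of G proteins and adenylyl cyclases, which carry the receptor signal to cyclic AMP, 1 of 12 tested genes was called, and the next by p were Adcy2, an adenylyl cyclase (log2 difference 0.38), and Gnb1, a G protein beta subunit (0.29). Of the 8 tested genes of dopamine synthesis, packaging and breakdown none was called. There the smallest p belonged to the monoamine oxidases Maob (0.37) and Maoa (0.23), which break dopamine down, and to Pts (0.27), which helps make the cofactor of tyrosine hydroxylase.

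None of 13 receptor regulators and binding partners was called; Rgs4, which speeds the inactivation of G proteins, had a log2 difference of 0.40, Gprasp1, which directs receptors to degradation, 0.40, and Gipc1, a binding partner of D2-like receptors, 0.29. None of the 20 tested kinases, phosphatases and phosphodiesterases around DARPP-32 was called either. The smallest p belonged to the phosphatase subunits Ppp2ca (0.44; limma, unadjusted p = 0.0069), Ppp1cb (0.37) and Ppp1cc (0.39), the last 2 being catalytic subunits of the phosphatase that DARPP-32 inhibits. For 11 of these 12 named pathway genes saline rat 5 was the highest saline rat. After quantile normalization the differences of the 11 uncalled genes were between -0.0079 (Maoa) and 0.18 (Ppp2ca).

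**Figure D5:**
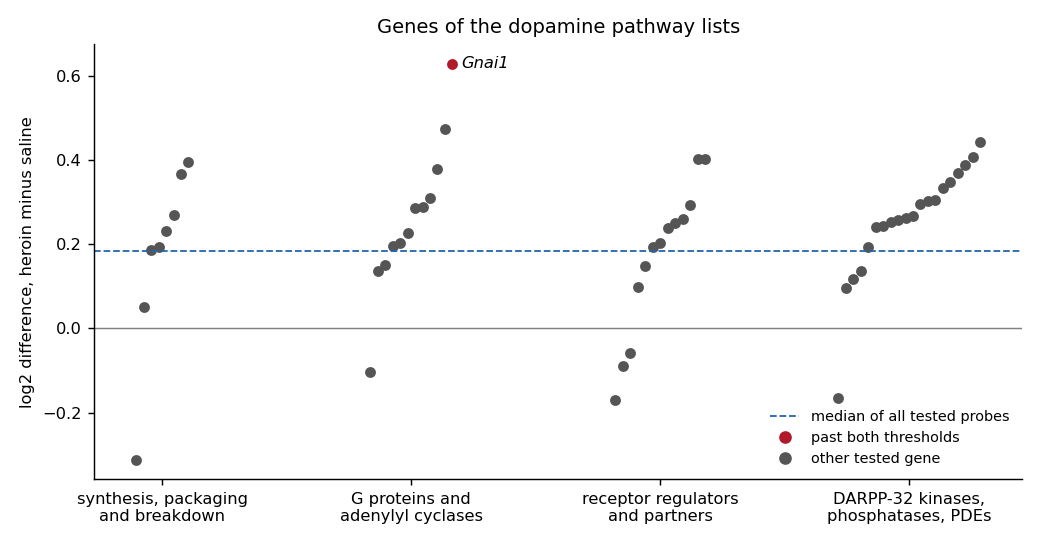
Log2 difference (heroin minus saline, signals in array medians) of each tested gene in 4 lists around dopamine signalling, 53 points in all, with the median of all tested probes (0.18) as a dashed line. Only Gnai1 (red) was past both thresholds, and 39 of 53 genes lie above the dashed line.

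Markers of other cell types were measured in the same rats. Called markers numbered 1 of 8 among those of interneurons (Vip, log2 difference 0.49, or 0.25 and not called after quantile normalization). They numbered 0 among those of pyramidal neurons, oligodendrocytes, astrocytes, microglia, and endothelium, choroid plexus and blood. Of all tested probes 2.72% were called. The mean log2 level of the 5 pyramidal markers was 3.89 to 4.65 in heroin and 3.90 to 4.11 in saline rats, and that of the 8 interneuron markers was 5.17 to 5.47 and 4.83 to 5.42. The 7 oligodendrocyte markers ranged more widely, from 4.00 to 5.51 and from 3.99 to 5.41. The 7 astrocyte markers lay at 3.92 to 4.58 and 3.76 to 4.39, the 5 microglia markers at 3.00 to 3.78 and 2.97 to 3.54, and the 5 markers of endothelium, choroid plexus and blood at 1.68 to 2.51 and 1.83 to 2.25. Only the striatal markers were correlated with the members, and the part of any cell type in the members' values was not tested.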

How the data were processed

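RNA of the mPFC was measured on 11 single-colour Agilent rat arrays, 6 of heroin and 5 of saline rats. The authors deposited, per array, spot signal intensities corrected for background in Feature Extraction (9.5.1.1, per the file headers) and not scaled between arrays. A further deposited table gives each probe's signal in a rat as a ratio to that gene's median, made in GeneSpring GX (version 7.3); it holds 6 of the 8 members and was used as an alternative. Replicates are different rats, 1 array each.

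From the intensities, control and marked outlier spots were left out, signals under 5 were set to 5, the array's 50th percentile over non-control probes was divided out, and log2 was taken. Spots of a probe were averaged. A probe was detected where at least 0.5 of its spots were scored well above background, and tested where detected on all 11 arrays and usable on at least 2 arrays per group. The 2 groups were set against each other by limma 3.58.1 (lmFit, eBayes) under R 4.3.3, with two-sided p-values and Benjamini-Hochberg adjustment across the 25555 tested probes; the script was tested on simulated data. Single genes were also tested by exact permutation, for which the smallest possible p is 0.00216, and correlations by permutation with 100000 resamples. The p-values measure the spread between these rats.

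The members and gene lists were chosen with earlier results of these data known. Named were all members; from each pathway list the genes past both thresholds or, if fewer than 3, the 3 with the smallest p; and the 2 genes most like each member. The genes named from the marker lists were given as list members. One gene of the pathway lists is not reported here by name. Positions are those of the array's annotation on rn3. Probe sequences are the array's; the probes of Drd1a, Drd5 and Slc6a3 are not printed. Alternatives were other scalings (75th percentile, quantile, scaling before the floor), the normexp background (offset 50), the authors' ratios, keeping marked spots, no detection filter, the methods' t-test (their one-way test without equal variances, which for 2 groups is an unequal-variance t-test), other eBayes settings, array weights, the replicate number or the scan as a block, and leaving out each rat. Added after the data were seen were leaving out heroin rat 6 and saline rat 5 together, and the relations with striatal markers.

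The labels do not say that a replicate number marks a pair. Arrays that share a number shared a scan, and the correlations of their deviations from the group means were 0.38, -0.13, 0.35, 0.02 and -0.24 for replicates 2 to 6.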

Additional observations from a re-analysis of the deposited data

Results flagged for a closer look

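Of 40 gene groups (7 members and 13 other named genes, heroin and saline rats each) 2 held a rat far from the others of its group, where chance gives about 1 in 20. Neither was a dopamine receptor. Saline rat 5 had 88.8 array medians of Ppp2ca, the catalytic subunit of protein phosphatase 2A, far above the other saline rats. Heroin rat 6 had 2.92 array medians of Pts, which serves the synthesis of tetrahydrobiopterin, far below the other heroin rats.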

How the results depend on the processing

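No alternative called a member, leaving out single rats included (0 to 0 called). The log2 changes of Drd1a and Drd3 were negative under every alternative. They ranged from -0.50 to -0.28 and from -0.36 to -0.19 when single rats were left out. They were smallest with normexp, at -0.16 and -0.11. That setting adds an offset of 50, which by itself shrinks the log2 differences of dim probes. The signals were 25.8 to 102 intensity units for Drd1a and 25.1 to 78.4 for Drd3. Drd5, Ppp1r1b and Th, all close to 0, changed sign: with the 75th percentile to -0.21 (Ppp1r1b) and -0.20 (Th), with quantile normalization to 0.036 (Drd5) and -0.13 (Ppp1r1b), with array weights to 0.19 (Drd5), -0.042 (Ppp1r1b) and -0.0057 (Th), and without heroin rat 6 and saline rat 5 to 0.18 (Drd5) and -0.0037 (Ppp1r1b). Without single rats they ranged from -0.12 to 0.17 (Drd5), -0.059 to 0.083 (Ppp1r1b) and -0.029 to 0.065 (Th). Maoa became -0.0079 after quantile normalization. Each of the 12 named pathway genes had an adjusted p under 0.05 by limma in some alternative, from 0.0185 for Gnai1 to 0.0376 for Maoa. These genes were picked by their p in the same data. The share of all probes with such an adjusted p in those alternatives was not counted, so this does not set the 12 genes apart. None of the 12 had one in the main fit or after quantile normalization. Each member had 1 probe, so averaging probes changed nothing.

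The count of all called probes moved from 694 (457 higher, 237 lower) to 457 with quantile normalization (218 higher), 126 with normexp, 1560 with no detection filter (475 higher), 308 by the methods' t-test, 2488 with array weights and 2821 without heroin rat 6 and saline rat 5, and was 0 at an adjusted p under 0.05. With the 75th percentile it was 779, of which 33 were higher. Without single rats it ranged from 345 (without saline rat 2) to 2356 (without saline rat 5), and was 394 without saline rat 3. Correlations past the adjusted threshold numbered 1, and 2 after quantile normalization; r of Drd3 with striatal markers ranged from -0.92 to -0.85 without single rats. With the replicate number as a block, which is also the scan and leaves heroin rat 1 without a partner, 805 probes were called, no member among them, and the log2 changes were -0.39 (Drd1a, limma's adjusted p = 0.454), -0.21 (Drd3), -0.02 (Drd5), 9.5e-05 (Ppp1r1b) and 0.06 (Th); the numbers share a scan and are not known to pair rats. Signal over background limits Drd2, Drd4 and Slc6a3.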
